A study of Mus musculus with 4 samples.

Results

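Immediate early transcription factors of the NR4A, EGR, FOS and JUN families were examined in mouse Th17 cells, CD4 helper T cells that make IL-17, given a CRISPR guide against Adarb1. The product of Adarb1 is ADAR2, a deaminase that converts adenosine into inosine within double-stranded RNA. The genes were the 10 named family members Nr4a1, Nr4a2, Nr4a3, Egr1, Egr2, Egr3, Fos, Fosb, Jun and Junb, found by symbol among the 55450 genes of the authors' deposited table, of which 29383 had a fold change. All 10 had a fold change. The comparison set 2 cultures transduced with a PSIN retrovirus carrying sgAdarb1 against 2 cultures transduced with the empty PSIN vector. Both groups carried a Cas9 transgene and came from wild-type mice 8 to 12 weeks old. Each of 2 donor mice gave a culture to each group, so no p-value rests on more than 4 cultures of 2 animals. Naive CD4 T cells had been stimulated through CD3 (0.25 µg/mL antibody) and CD28 (1 µg/mL antibody), transduced after 24 h, and then kept for 72 h in TGF-β at 0.3 ng/mL and IL-6 at 20 ng/mL. The control vector held no guide, so a non-targeting guide was not part of the comparison used here.

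Immediate early genes are transcribed within minutes of a stimulus from factors already present in the cell, without the need for new protein. In T cells, the antigen receptor drives them through MAP kinases, calcium and calcineurin, which act on SRF with its TCF partners, on CREB and on MEF2. Their products bind DNA and set the later response: FOS and JUN proteins pair as AP-1, EGR proteins are zinc finger factors, and NR4A proteins are orphan nuclear receptors that can limit T cell activation. The cultures here were read days after activation began, and earlier times were not analysed here.

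Promoter sequences are given for the genes on which the description below turns, 1 or 2 per family, since immediate early genes are known by the elements upstream of their start. The sequences run 5′ to 3′ from RefSeq on GRCm38.p6, the assembly that mm10 denotes, and hold up to 250 bases before the start with bases of GENCODE M21 exons of the gene left out, which leaves 98 bases for Nr4a3. Capitals mark matches to TGACG, the core of the cAMP response element (CRE), to the CRE-like element TGCGTCA, to the EGR motif GCGNGGGCG, to the CArG box bound by SRF, and to TATAAA. All were searched on both strands except TATAAA, and every CRE or CRE-like match also holds the core.
Nr4a1: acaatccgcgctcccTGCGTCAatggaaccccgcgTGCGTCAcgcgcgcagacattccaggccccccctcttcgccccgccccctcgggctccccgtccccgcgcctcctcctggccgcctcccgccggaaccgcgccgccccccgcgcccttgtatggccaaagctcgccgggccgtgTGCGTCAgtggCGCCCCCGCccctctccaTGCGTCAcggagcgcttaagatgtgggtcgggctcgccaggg
Nr4a3: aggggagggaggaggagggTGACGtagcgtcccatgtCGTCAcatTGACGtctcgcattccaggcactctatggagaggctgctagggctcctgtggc
Egr2: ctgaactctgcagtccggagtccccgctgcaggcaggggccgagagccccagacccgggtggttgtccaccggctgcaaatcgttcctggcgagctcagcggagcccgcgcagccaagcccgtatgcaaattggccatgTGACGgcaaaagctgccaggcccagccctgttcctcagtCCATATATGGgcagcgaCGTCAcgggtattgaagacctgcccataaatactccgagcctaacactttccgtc
Fos: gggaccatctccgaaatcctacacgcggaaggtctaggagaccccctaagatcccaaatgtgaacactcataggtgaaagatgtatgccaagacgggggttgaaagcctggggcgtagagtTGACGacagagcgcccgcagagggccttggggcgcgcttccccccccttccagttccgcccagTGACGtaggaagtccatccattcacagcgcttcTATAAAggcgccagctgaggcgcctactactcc
Junb: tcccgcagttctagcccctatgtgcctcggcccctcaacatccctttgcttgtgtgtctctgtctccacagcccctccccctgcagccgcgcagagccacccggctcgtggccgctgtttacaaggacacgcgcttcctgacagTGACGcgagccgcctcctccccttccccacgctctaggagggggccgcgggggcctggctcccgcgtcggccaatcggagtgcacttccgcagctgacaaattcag
The windows are chr15:101266596-101266845 on the plus strand for Nr4a1, chr4:48045055-48045152 on the plus strand for Nr4a3, and chr10:67537619-67537868 on the plus strand for Egr2. Those of Fos and Junb are chr12:85473640-85473889 on the plus strand and chr8:84978749-84978998 on the minus strand. The Nr4a1 window held 4 matches to TGCGTCA and 1 to the EGR motif, and the Nr4a3 window 3 matches to TGACG. The Egr2 window held 1 CArG box and 2 matches to TGACG. It was picked from 5 listed for that gene as the one with the most bases in matches. Its matches therefore need not hold for the other windows of Egr2. The Fos window held 2 matches to TGACG and 1 to TATAAA, and the Junb window 1 match to TGACG.

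Of the 10 genes, 8 had a promoter in the RefSeq table; Egr1 and Egr3 were the other two. Over the whole 250 bases, TGACG was found in 7 of these 8 genes, against 17.8% of all 32851 promoter windows, and Jun was the gene with no match. The CArG box was found for Egr2 and in 1.47% of all windows, and TATAAA for Fos and in 7.59%. TGCGTCA was found for Nr4a1 and Fosb and in 1.75% of all windows. The EGR motif was found for Nr4a1, Nr4a2 and Fosb and in 4.70% of all windows. The full palindrome TGACGTCA was found in 0 of the 8 genes and in 1.55% of all windows, and the AP-1 motif TGANTCA in 0 of 8 and in 6.75%. These matches describe letters in a window. A gene was counted if any of its windows matched, whereas the percentages count single windows, so the counts and percentages are not of the same unit. Egr2 had 5 windows in which to match, and Nr4a1, Nr4a3, Fos and Junb had 1 each.

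Values are those of the authors' deposited table, which gives a mean normalized count over the 4 libraries and 1 log2 fold change per gene with its standard error (SE). It does not name the numerator of the fold change. The sign is read here in the order of the study's design, sgAdarb1 relative to empty vector, and turns if the authors used the other order. Titles give a group and a replicate number, and the study's design text places each donor in both groups. For 2 of the 4 cultures the treatment tag gives the group that the title does not, and the authors' own grouping could not be checked. The table's 4 columns per library match no sample label and were not used, so levels per culture are not given. In bulk RNA, fewer cells of a type and less RNA per cell cannot be told apart. The targeted gene, Adarb1, was at 0.11 ± 0.12 (log2 fold change, SE) with a mean normalized count of 2130 in the authors' deposited table, which neither checks the labels nor sets the sign, since a Cas9 cut need not change the amount of mRNA. All 12 T cell and Th17 markers were detected, led by Cd4 at a mean normalized count of 15286 in the authors' deposited table. Of these 12, 10 lay above 0 and 2 below, with a median log2 fold change of 0.10. Of the 10680 genes whose mean reached 50, 51.9% lay above 0, with a median of 0.01. The unadjusted p (DESeq2) was below 0.05 for 2 of the 12, Il17a and Il17f, and for 0.208% of all 29383 genes. The summed means, from the authors' deposited table, were 2443 for 7 B cell markers, 918 for 6 CD8 T and NK cell markers, 226 for 12 myeloid and dendritic cell markers and 115 for 10 mast cell and basophil markers. The dendritic cell marker Clec9a and the mast cell protease gene Tpsab1 were listed at 0 in the authors' deposited table. Mast cell and basophil markers lay mostly on the negative side, 7 of the 9 tested against 2 above 0, in the authors' deposited table. Of these, Cpa3, a mast cell protease gene, was at -5.66 ± 1.26 (log2 fold change, SE) with a mean normalized count of 28.7 (unadjusted p = 7.23e-06, adjusted p = 0.0709, the authors' deposited table, DESeq2). Cma1, which encodes a mast cell chymase, was at -4.70 ± 1.98 with a mean of 8.20 (unadjusted p = 0.0177, the authors' deposited table). Fitted values at such low counts are not bounds, and none of the 9 passed the adjusted threshold. Above 0 lay 9 of 11 myeloid and dendritic cell markers, 3 of 7 B cell markers and 2 of 6 CD8 T and NK cell markers, in the authors' deposited table. The share was 51.9% over the 10680 genes whose mean reached 50. An unadjusted p (DESeq2) below 0.05 was found for 0 of these markers and for 0.208% of all 29383 genes. A mean under 50 was found for 9 of the 11 myeloid and dendritic cell markers and 8 of the 9 mast cell and basophil markers. Of the 2 myeloid and dendritic cell markers whose mean reached 50, 1 lay above 0. Per-group sums were not computed, and the part of these cells in the values below was not tested.

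All 10 genes were expressed in these cultures. The lowest, Fosb, had a mean normalized count of 176 in the authors' deposited table, at percentile 71.2 of genes with a fold change. Junb, which encodes an AP-1 subunit needed for Th17 cells in mice, stood highest at 10778 normalized counts in the authors' deposited table, percentile 99.4. Divided by exon length, Junb had 4684 normalized counts per kb, from the authors' deposited table and the annotation. Next in order of level per kb came Nr4a1 at 570, Jun at 536 and Nr4a3 at 527, from the authors' deposited table. Egr2 at 355, Egr1 at 330, Egr3 at 249 and Nr4a2 at 213 normalized counts per kb followed, from the authors' deposited table. The FOS genes stood last, with Fos at 154 and Fosb at 28.2 normalized counts per kb, from the authors' deposited table. The range over the 10 genes was 166-fold per kb. These levels are means over both groups with no spread across cultures, so neighbours in the order cannot be ranked against error.

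**Figure D1:**
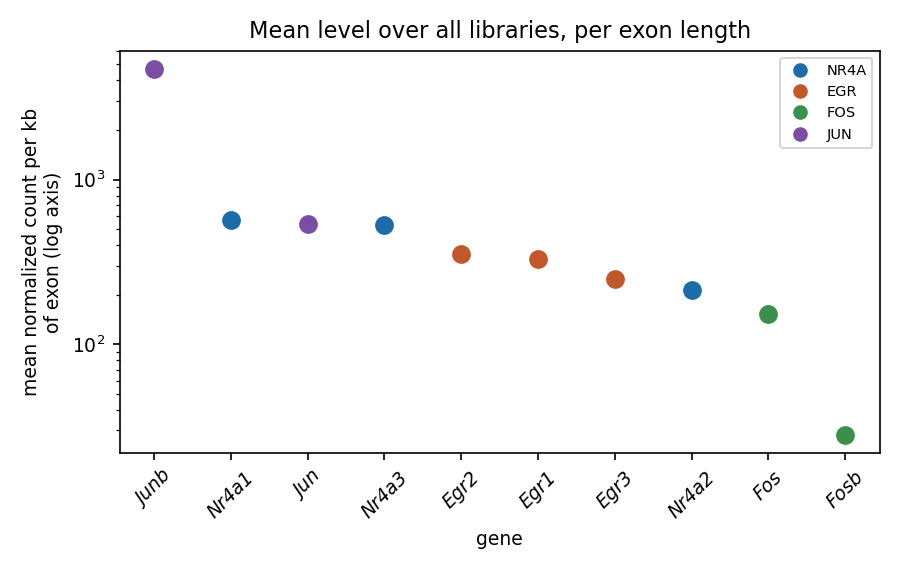
Mean normalized count per kb of exon, averaged by the authors over all 4 libraries, for the 10 genes in order of level (y axis logarithmic), coloured by family. Junb stands at 4684, and Fosb at 28.2.

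The question of the comparison was whether the mRNAs of these factors differ between sgAdarb1 cultures and empty-vector cultures. None of the 10 passed the test: the adjusted p that the authors' deposited table lists (DESeq2) was below 0.05 for 0 of them and for 0% of all genes tested. An unadjusted p below 0.05 was reached by 1 of the 10, Junb, against 0.208% of all 29383 genes and 1.31% of the 3664 genes with a mean normalized count of at least 1000. Both shares fall below the share of 0.05 that evenly spread p-values would give. The Wald statistics of genes whose mean reached 10 had a robust spread of 0.541, narrower than the standard normal that p-values and intervals assume. The intervals below may therefore be too wide, which was not tested. Log2 fold changes ran between -0.10 and 0.23 with a median of 0.06 in the authors' deposited table, against a median of 0.01 over the 10680 genes whose mean reached 50. Of the 10, 7 lay above 0 and 3 below, where 51.9% of those 10680 genes lay above 0. The 95% interval spanned 0 for 9 of the 10 genes, and for all 10 it excluded a log2 difference of 1 in either direction. That difference was also excluded for 9390 of the 10680 genes whose mean reached 50 and 3655 of the 3664 whose mean reached 1000. For 8 of the 10 genes the interval also excluded a 1.5-fold difference either way, a share not computed over all genes. The exceptions were Nr4a3 and Fosb.

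**Figure D2:**
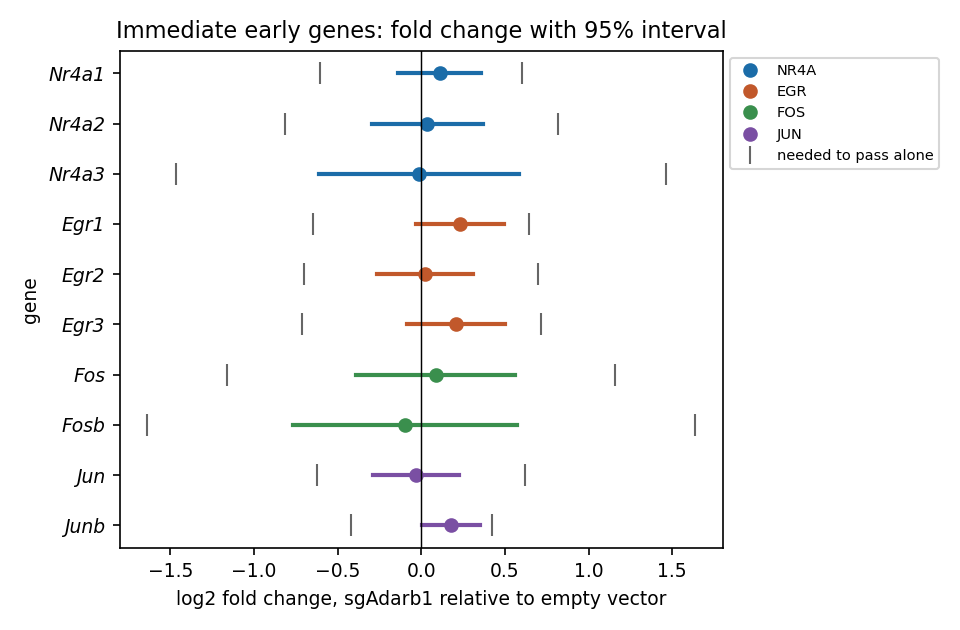
Log2 fold change of sgAdarb1 relative to empty vector for the 10 genes (points) with 95% intervals (bars) from the authors' deposited table, coloured by family. Grey ticks mark the log2 fold change at which a gene would have passed alone given its SE, between 0.42 for Junb and 1.64 for Fosb, and no point reaches its ticks.

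Among the NR4A receptors, Nr4a1, which encodes Nur77 and is widely used as a reporter of antigen receptor signalling, lay at 0.11 ± 0.13 (log2 fold change, SE) in the authors' deposited table. Its interval ran from -0.14 to 0.36 and its unadjusted p was 0.379 in the authors' deposited table. With a trend of fold changes on GC content and exon length removed, Nr4a1 was at 0.058. Nr4a2, which encodes Nurr1, was at 0.04 ± 0.17 (unadjusted p = 0.829, the authors' deposited table). Nr4a3, which encodes Nor1, was at -0.01 ± 0.31 (unadjusted p = 0.968, the authors' deposited table). The 3 genes lie on chromosome 15 (101254269 to 101274795), chromosome 2 (57106830 to 57124003) and chromosome 4 (48045153 to 48086447) of mm10.

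Nr4a3 stood apart from the other 9 genes in its error. Its SE of 0.31 in the authors' deposited table was 2.86 times the running median of 0.107 over the 200 genes nearest to it in mean. For the other 9 genes that ratio lay between 0.998 and 1.04. An SE of at least 2 times the running median was found for 0.59% of the 10680 genes whose mean reached 50, which is 63 genes. Its interval of -0.61 to 0.59 in the authors' deposited table went with a mean normalized count of 3156, and to pass alone Nr4a3 would have needed 1.46 on the log2 scale. Of the 50-base words in Nr4a3 transcripts, 0.15% also occurred in transcripts of another gene, and 0 of the other members were among those genes. Whether shared sequence bears on the SE of Nr4a3 was not tested. Which cultures carry the spread of Nr4a3 is not shown by the table without its columns per library.

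**Figure D3:**
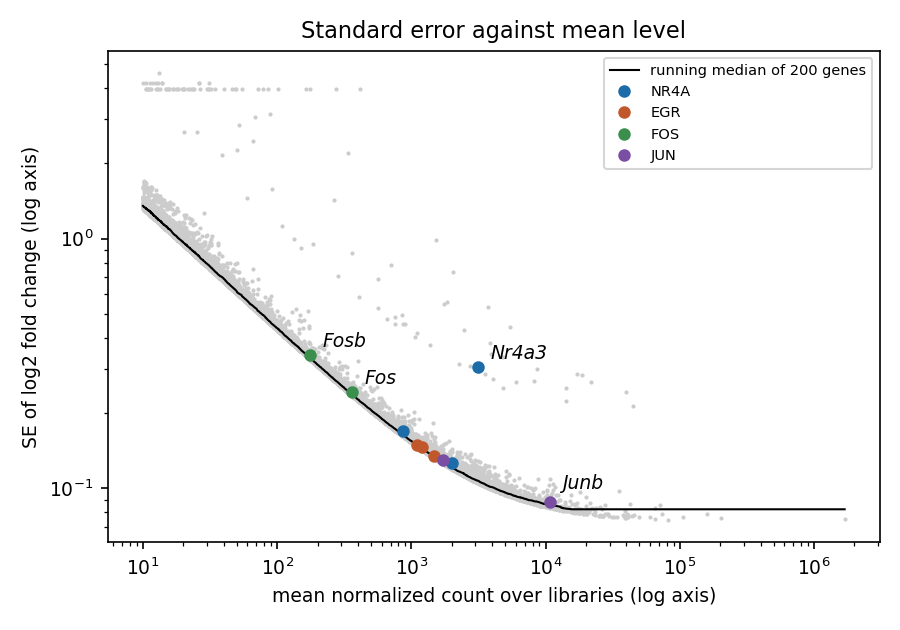
SE of the log2 fold change against mean normalized count (both axes logarithmic) for genes with a mean of at least 10 (grey), with the running median over 200 genes (line) and the 10 genes coloured by family. Nr4a3 lies at 2.86 times the line, and the other 9 between 0.998 and 1.04 times.

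The EGR genes lay above 0 as deposited, and none passed. Egr1, the classical serum- and receptor-induced zinc finger factor on chromosome 18 (34859823 to 34864984, mm10), was at a log2 fold change of 0.23 ± 0.13 (SE; unadjusted p = 0.0862, the authors' deposited table). Egr3 (chromosome 14, 70077203 to 70082614) was at 0.21 ± 0.15 (unadjusted p = 0.161, the authors' deposited table). Egr2 (chromosome 10, 67535475 to 67542188), which with Egr3 restrains activated T cells and is tied to anergy in mice, was at 0.02 ± 0.15 in the authors' deposited table. Egr2 turned to -0.0020 with the same trend removed. The intervals in the authors' deposited table reached from -0.03 to 0.50 for Egr1, -0.08 to 0.50 for Egr3 and -0.27 to 0.31 for Egr2. They overlapped, and differences between the EGR genes were not tested. To pass alone, Egr1 would have needed 0.65 on the log2 scale, given its error in the authors' deposited table.

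The FOS genes had the lowest counts and, with Nr4a3, the widest intervals. Fos, the AP-1 subunit that lends the family its name (chromosome 12, 85473890 to 85477273), was at 0.09 ± 0.24 (log2 fold change, SE) with a mean normalized count of 361 in the authors' deposited table. Fosb (chromosome 7, 19302696 to 19310051) was at -0.10 ± 0.34 in the authors' deposited table, with an interval from -0.77 to 0.57. Fos would have needed 1.16 and Fosb 1.64 on the log2 scale to pass alone, given their errors in the authors' deposited table. By the same measure a difference of 1.5-fold would have been too small to pass alone for 9 of the 10 genes, all but Junb.

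Of the JUN genes, Jun, a gene with a single exon on chromosome 4 (95049034 to 95052222), was at a log2 fold change of -0.03 ± 0.13 (SE; unadjusted p = 0.804, the authors' deposited table). That exon shares 232 bases with the antisense gene Junos, which had a mean normalized count of 9.16 in the authors' deposited table. Junb (chromosome 8, 84974484 to 84978718) was at 0.18 ± 0.09, an estimated 1.13-fold difference, with an interval of 1.00-fold to 1.27-fold, in the authors' deposited table. Its unadjusted p was 0.0455 and its adjusted p 1.00 in the authors' deposited table (DESeq2). With the trend on GC content and exon length removed, Junb was at 0.08, with an unadjusted p of 0.348.

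Junb shares exon sequence with a neighbour. Prdx2, which encodes the antioxidant enzyme peroxiredoxin 2, runs on the opposite strand (84969587 to 84974834), and 173 bases of exon, 7.52% of the 2301 exon bases of Junb, lie in both genes. Prdx2 had a mean normalized count of 8004 and a log2 difference of 0.22 ± 0.09 (unadjusted p = 0.0173, the authors' deposited table). As deposited, both genes of this overlapping pair thus lay on the positive side with an unadjusted p below 0.05, and neither passed after adjustment. With the trend on GC content and exon length removed, Prdx2 was at 0.20 (unadjusted p = 0.0285, Wald test) and Junb at 0.08. Whether reads were counted by strand is not stated in the labels or the file. How far reads from the shared bases enter either count was not tested. Apart from Jun and Junb, no member overlapped an annotated gene.

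The genes known to act with these factors were read from 7 lists holding 109 genes, of which all 109 had a fold change. By the adjusted p that the authors' deposited table lists (DESeq2), 0 were below 0.05, and by the unadjusted p 2 were, where these rules call 0% and 0.208% of all 29383 genes and the unadjusted one 1.31% of genes with a mean of at least 1000. These were Il17a and Il17f, both cytokine genes of Th17 cells. Over the 7 lists 71 genes lay above 0 and 38 below, with a median of 0.03 on the log2 scale, from the authors' deposited table. Of the 102 with a mean of at least 50, 68 lay above 0, where 51.9% of all 10680 such genes did and their median was 0.01. For 95 of the 109 the interval excluded a log2 difference of 1 in either direction. The same held for 9390 of all 29383 genes, and for 9390 of the 10680 whose mean reached 50.

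**Figure D4:**
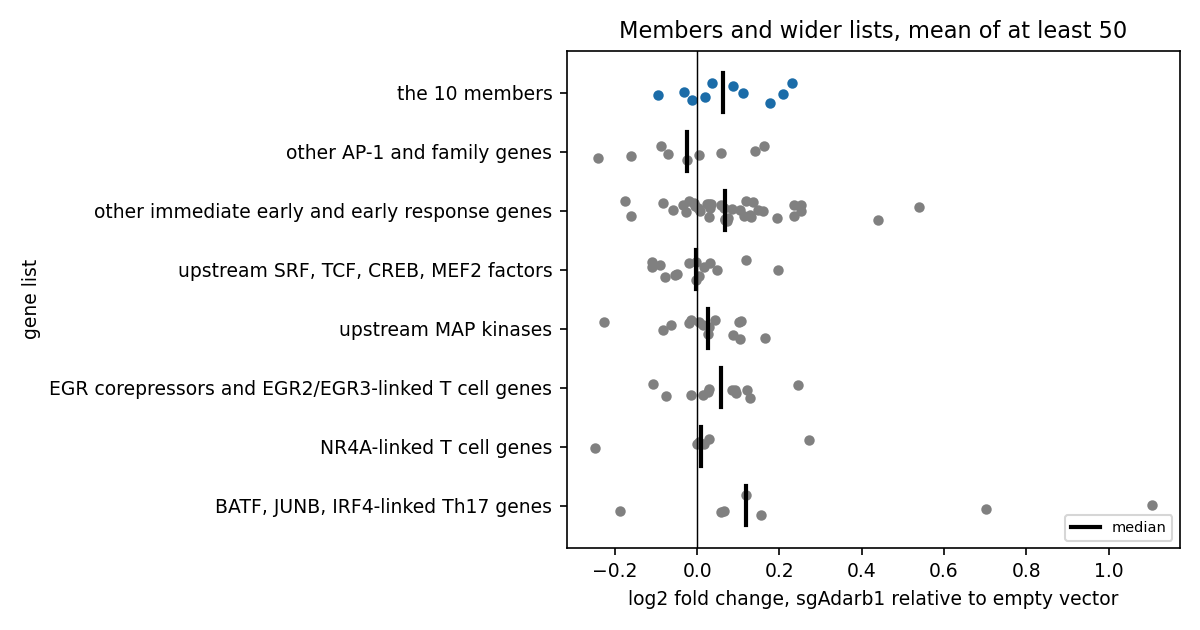
Log2 fold change of sgAdarb1 relative to empty vector (x axis) for the 10 genes and for members of the 7 wider lists with a mean normalized count of at least 50 (points), with each list's median (bar). The 10 genes have a median of 0.06, and Il17a at 0.70 and Il17f at 1.11 stand to the right of all other points.

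Upstream of the immediate early genes, the MAP kinase list had 10 of 15 genes above 0 and 5 below, with a median of 0.03 in the authors' deposited table. Map2k2, which encodes the kinase MEK2, was at 0.10 ± 0.12 (log2 fold change, SE) in the authors' deposited table. The ribosomal S6 kinase genes Rps6ka1 and Rps6ka3, whose products act downstream of MAP kinases, were at 0.09 ± 0.11 and 0.10 ± 0.12 in the authors' deposited table. The transcription factors that act on immediate early promoters had 6 of 15 genes above 0 and 9 below, with a median of -0.00 in the authors' deposited table. Creb1, which encodes the CRE-binding factor, was at -0.09 ± 0.13, and Elk4, a TCF partner of SRF, at -0.05 ± 0.13 in the authors' deposited table. Crem, a CREB relative with repressor isoforms, was at 0.03 ± 0.12 and Cabin1, which encodes an inhibitor of calcineurin and MEF2, at 0.05 ± 0.11 in the authors' deposited table.

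Beside the members, the other AP-1 and family genes were split 6 to 6 among 12, with a median of -0.01 in the authors' deposited table. Fosl2, which encodes the FOS relative FRA2, was at 0.16 ± 0.10, and Jund, the third JUN gene, at 0.14 ± 0.10 (log2 fold change, SE) in the authors' deposited table. With the trend on GC content and exon length removed, Fosl2 was at 0.15 and Jund at 0.013. Batf, the AP-1 partner required for mouse Th17 cells, was at 0.01 ± 0.14 in the authors' deposited table and at -0.060 with the trend on GC content and exon length removed. Batf3 was at -0.09 ± 0.17 in the authors' deposited table. Of 41 other early response genes, 29 lay above 0 and 12 below, with a median of 0.06 in the authors' deposited table. The most abundant was Bhlhe40, a helix-loop-helix factor of effector T cells, at 0.08 ± 0.08 with a mean normalized count of 25987 in the authors' deposited table. Irf4, the partner of BATF in T cells, was at 0.01 ± 0.08, and Dusp4, a phosphatase that acts on MAP kinases, at 0.06 ± 0.10 in the authors' deposited table. Klf6, a zinc finger factor, was at -0.01 ± 0.09 in the authors' deposited table and at 0.027 with the same trend removed.

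Downstream, the EGR corepressor and EGR-linked list had 9 of 12 genes above 0 and 3 below, with a median of 0.06 in the authors' deposited table. Tnfrsf9, which encodes the costimulatory receptor 4-1BB, was at 0.03 ± 0.08, and Cblb, a ubiquitin ligase that limits receptor signalling, at 0.03 ± 0.09 (log2 fold change, SE) in the authors' deposited table. The diacylglycerol kinase genes Dgka and Dgkz were at 0.01 ± 0.10 and 0.08 ± 0.11 in the authors' deposited table, and Dgka was at -0.0015 with the trend on GC content and exon length removed. Among NR4A-linked genes 5 of 7 lay above 0 and 2 below, with a median of 0.02 in the authors' deposited table. The inhibitory receptor genes Pdcd1 and Havcr2 were at 0.02 ± 0.13 and -0.25 ± 0.18 in the authors' deposited table, with Pdcd1 at -0.033 after the trend was removed. Rxra and Rxrb, which encode dimer partners of Nur77 and Nurr1, were at 0.03 ± 0.15 and -0.00085 ± 0.18 in the authors' deposited table, with Rxra at -0.015 after the trend was removed.

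Th17 genes linked to BATF, JUNB and IRF4 had 6 of 7 above 0 and 1 below, with a median of 0.12 in the authors' deposited table. Il17a was at 0.70 ± 0.15 (log2 fold change, SE), and the authors' deposited table (DESeq2) lists its adjusted p as 0.0709. Il17f was at 1.11 ± 0.53 in the authors' deposited table, with an SE 5.22 times the running median at its mean. Rora, a lineage factor, was at 0.07 ± 0.12 and Il21, an autocrine cytokine, at 0.06 ± 0.13 in the authors' deposited table. The log2 differences of the cytokine genes Il17a and Il17f were larger than those of any of the 10 immediate early genes, and the difference between the sets was not tested.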

How the data were processed

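RNA of 4 cultures was ribosome-depleted, made into libraries with 8 PCR cycles and sequenced, per the labels' protocols. Per the submitters' processing notes, the tools were STAR (2.6.1a), featureCounts and DESeq2 (1.18.1) on mm10. Not given in the sources used here are the model formula, any donor term, the annotation and the strand setting. Per the file headers, the authors deposited a mean signal over libraries of counts divided by size factors, a log2 fold change with its SE, a Wald score, a p-value and an adjusted p-value. The score equalled the log2 fold change over its SE, and the adjusted p-value a Benjamini-Hochberg adjustment over 29383 genes. The 4 columns whose names match no label were not used, so the depth per sample is not given and the deposited SE carries the precision.

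All 55450 identifiers matched GENCODE M21, the source of symbols, positions and exon lengths. Intervals are the deposited fold change with 95% normal limits. The value needed to pass alone used a p of 1.70e-06, the threshold of 0.05 over all genes. Intervals and needed values take the Wald score as standard normal, although its robust spread was 0.541 over genes whose mean reached 10. Scripts used Python 3.11.15, numpy 2.4.6 and scipy 1.17.1 and were tested on simulated data. The members and lists were chosen with earlier results of these data known. Named in each wider list were the 4 genes of largest mean and any gene with an unadjusted p below 0.05; some genes are not reported here. Alternatives covered the threshold, the genes adjusted over, the scaling of the Wald score, centring, and a trend on GC content and exon length. 3 listed genes were matched through an older symbol.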

Additional observations from a re-analysis of the deposited data

How the results depend on the processing

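No paired analysis was possible because no column per library could be tied to a culture. Hence the edgeR and DESeq2 refits, groups from the treatment tag and the omission of a culture were not run. The count of members past the threshold was 0 under all 7 alternatives run. The lowest adjusted p of any member was 0.0644, for Junb with the Wald statistic scaled by its robust spread of 0.541. Over all genes the count was 0 as deposited, 3 at an adjusted p below 0.1, 3 and 2 when p-values were adjusted over genes whose mean reached 10 and 50, and, both also limited to genes whose mean reached 10, 34 with the scaled Wald statistic (16 higher, 18 lower) and 3 with the trend on GC content and exon length removed. Those 3 (Cpa3, Il17a and Snord17) are the genes called under that limit alone, so removing the trend added no call. The scaled count includes Prdx2 (adjusted p = 0.00999), and that scaling takes the bulk of genes as unchanged. In the wider lists the count was 1, Il17a, under each of these 5 settings, against 0 as deposited.

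Of 273 values for 39 named genes, 261 kept direction and side of the threshold, 6 gained a call and 6 changed sign without a call. With the trend removed, the sign changed for Egr2 (-0.0020), Batf (-0.060), Klf6 (0.027), Dgka (-0.0015), Pdcd1 (-0.033) and Rxra (-0.015); the cause was not tested. The same trend took Junb to 0.08 and Nr4a1 to 0.06, and 6 of the 10 members then lay above 0, with a median of 0.05. The centring shift was 0.01 on the log2 scale. Thresholds, adjustment and scaling leave the fold change as it was, so direction could not change under them.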

Other observations

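Genes with an SE far above that of genes of similar mean, as seen for Nr4a3, were also present among the listed genes that act with these factors. Mef2c, which encodes a calcium-dependent factor more abundant in B cells and myeloid cells than in T cells, had an SE of 0.49 at a mean normalized count of 855 in the authors' deposited table, 3.00 times the running median. For Ccr6, the chemokine receptor of Th17 cells, the authors' deposited table lists an SE of 0.49 and a mean of 762, 2.82 times the running median. Of the B cell markers, the authors' deposited table lists Pax5 with an SE of 0.87 at a mean of 361. For the B cell marker Ebf1 the authors' deposited table lists an SE of 0.18 at a mean of 964, which is 1.14 times the running median. The choice of these genes was made with their values in view. Whether the same cultures set these errors was not tested.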
